A study of Arabidopsis thaliana with 8 samples.

Results

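AT5G64110 (PER70), AT5G64120 (PER71, also PRX71) and AT2G18980 (PER16) are 3 genes for class III peroxidases of Arabidopsis thaliana whose signal was much lower in heat-shocked seedlings. They were chosen by their heat shock differences in these same arrays, as falls in wild type or in the til1-1 mutant, so their heat shock values are a description here and carry no test. Each has 1 probe set that the platform annotation pairs with that gene alone. They are 3 of 13286 genes with such a probe set on the array, and 3 of 55 among the class III peroxidases.

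Class III peroxidases are secreted haem enzymes of land plants that use hydrogen peroxide to oxidise phenolic compounds in the cell wall. By joining monolignols into lignin and cross-linking extensins they can stiffen the wall, and by making reactive oxygen species they can also loosen it. Roots use many members of the family, and single genes have been tied to lignin deposition, root hair growth or restraint of cell expansion. PRX71 is known as a gene that limits cell growth and adds to wall strength.

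RNA was taken from 7-day-old seedlings, wild type (Col-0) or til1-1, mutant in TIL (AT5G58070), which encodes temperature-induced lipocalin. The seedlings had been kept at 22 °C or were collected straight after a heat shock at 37 °C of unstated length. Each of the 4 groups of genotype and temperature had 2 biological replicates, each a pool of about 100 whole plants, on 1 Affymetrix array per pool. No source used here describes the lesion of til1-1. TIL read 3464 in wild type and 3108 in til1-1 at 22 °C, and 20768 against 5573 at 37 °C, so its level separated the genotype labels only after heat shock; the mutant arrays are therefore called samples labelled til1-1.

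Values are the authors' linear intensities in arbitrary units. Array medians were 197.4 to 203.85 at 22 °C and 154.75 to 160.15 at 37 °C, and the correlation between replicate arrays across probe sets was 0.978 to 0.991. In a whole seedling, fewer cells of a type and less RNA per cell cannot be told apart. Apart from the summed marker intensities below, intensities of different probe sets were not combined or compared.

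AT5G64110 read 574.6 and 529.2 in the wild-type samples at 22 °C and 73.6 and 72.7 at 37 °C. In the samples labelled til1-1 it read 505.9 and 616.7 at 22 °C and 95.0 and 34.7 at 37 °C. All 4 heat-shocked arrays lay far below all 4 control arrays, and at each temperature the genotypes overlapped. Mean intensity at 37 °C was 13.3% of that at 22 °C in wild type and 11.6% in the samples labelled til1-1. On the scale of log2(intensity + 16), used for every log2 value here and on which a dim probe set's change is understated, the heat difference was -2.67 ± 0.28 in wild type and -2.94 ± 0.28 in the samples labelled til1-1 (standard errors from limma, n = 2 per group). The replicates labelled til1-1 at 37 °C were the widest pair, 64.9 ± 42.6 (SD, n = 2), against 73.2 ± 0.6 (SD, n = 2) in wild type.

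AT5G64120, the next gene along the chromosome, read 2034.3 and 1981.2 in wild type at 22 °C and 293.2 and 465.3 at 37 °C. In the samples labelled til1-1 it read 1578.4 and 1752.0 at 22 °C and 131.0 and 194.2 at 37 °C. Here no 2 of the 4 groups overlapped, and the order was wild type at 22 °C, til1-1 at 22 °C, wild type at 37 °C and til1-1 at 37 °C. Mean intensity was 5.29-fold lower at 37 °C than at 22 °C in wild type and 10.2-fold lower in the samples labelled til1-1. The matching log2 differences were -2.39 ± 0.19 and -3.26 ± 0.19 (standard errors, n = 2 per group).

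AT2G18980 read 1163.2 and 1276.6 in wild type at 22 °C and 190.8 and 172.4 at 37 °C. The samples labelled til1-1 read 1176.8 and 1258.0 at 22 °C and 193.8 and 191.1 at 37 °C. Replicates and genotypes lay close together at both temperatures: the 2 genotypes' means differed by 2.5 units at 22 °C and by 10.9 units at 37 °C, the second less than the SD of 13.0 between the wild-type replicates. Heat-shocked samples kept 14.9% of the control intensity in wild type and 15.8% in the samples labelled til1-1. The log2 differences were -2.64 ± 0.11 and -2.56 ± 0.11, with the smallest standard error of the 3 genes.

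**Figure D1:**
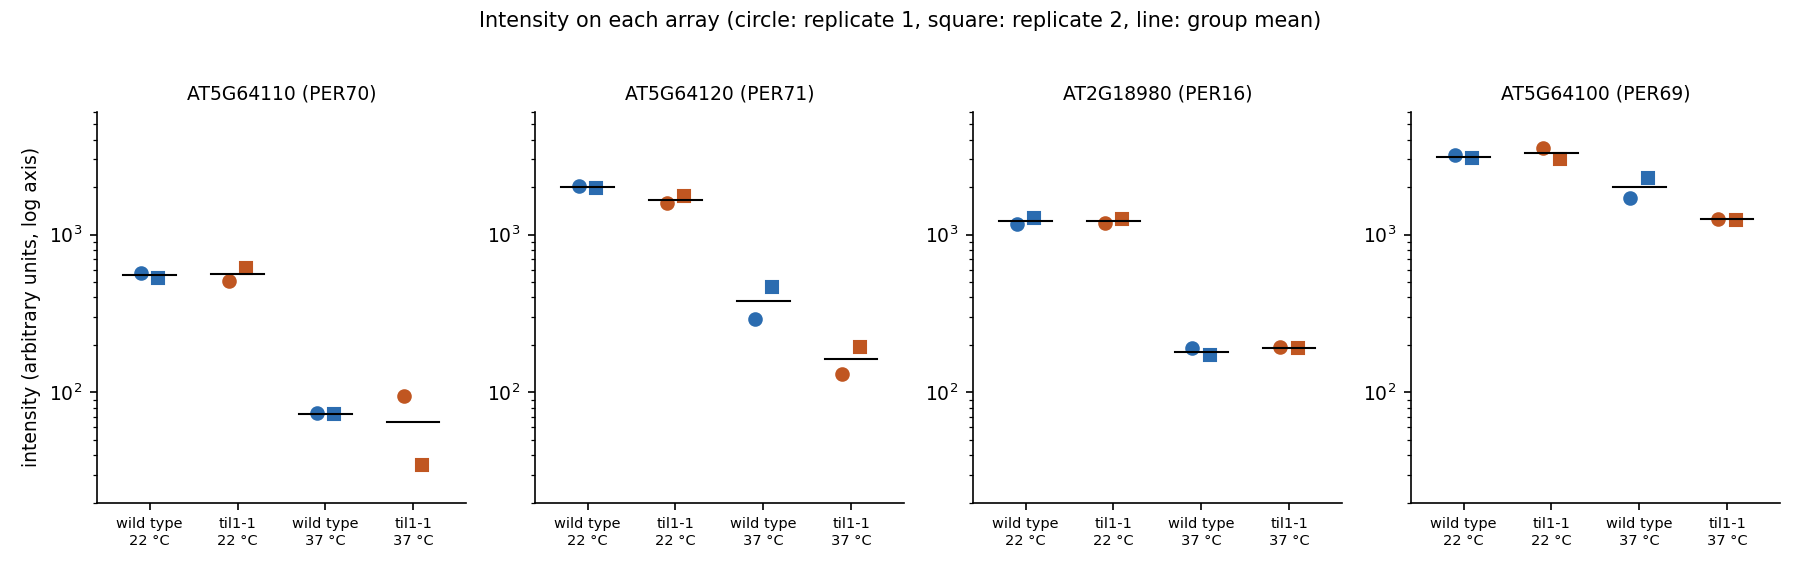
Intensity (arbitrary units, log axis) on each of the 8 arrays for AT5G64110, AT5G64120, AT2G18980 and the neighbouring peroxidase gene AT5G64100. Circles are replicate 1, squares replicate 2 and lines group means. For the first 3 genes every 37 °C array lies far below every 22 °C array, and AT5G64120 alone of these 3 keeps all 4 groups apart.

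Among all 17059 tested probe sets, the wild-type heat difference of AT5G64110 was the 20th lowest, that of AT2G18980 the 22nd and that of AT5G64120 the 40th. In the samples labelled til1-1 AT5G64120 was the 6th lowest, AT5G64110 the 13th and AT2G18980 the 29th. In total 98 probe sets lay below -2 on the log2 scale in wild type and 118 in the samples labelled til1-1. On this log2 scale the peroxidase gene next in line was AT2G39040 (PER24), with -2.03 in wild type and -2.40 in the samples labelled til1-1. AT2G39040 read 243.6 and 270.0 in wild type at 22 °C against 30.0 and 81.2 at 37 °C. The order in wild type depended on the scale. By mean intensity PER38 (AT4G08780), dim at 37 °C, kept 8.6% of its 22 °C value in wild type. There AT5G64110 kept 13.3%, AT2G18980 14.9% and AT5G64120 18.9%. In the samples labelled til1-1 PER38 kept 30.5%, more than any of these genes.

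Across the family, 55 of 73 listed genes had a probe set of their own and 41 were bright enough to be tested. The remaining 14 read between 1.2 and 67.5 on any array, and all 3 chosen genes were among the 41. The filter used the mean log2 value over all 8 arrays, so a gene bright at a single temperature could pass. PER38, dim at 37 °C, was among the 41 too. In wild type 32 of the 41 were called lower by limma (Benjamini-Hochberg adjusted p under 0.05) and none higher, with 35 at an unadjusted p under 0.05, of which 1 was higher. Over all tested probe sets 31.3% were called lower and 12.4% higher. In the samples labelled til1-1, 35 of the 41 were called lower and none higher (35 at an unadjusted p under 0.05), where 31.6% of all tested probe sets were called lower and 12.7% higher. Leaving out the 3 chosen genes, the counts were 29 of 38 and 32 of 38. The median log2 difference of these 38 was -0.90 in wild type and -1.10 in the samples labelled til1-1, beside -0.18 and -0.19 over all tested probe sets.

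The 32 genes called lower in wild type were all called lower in the samples labelled til1-1 as well. Called there alone were PER25 (AT2G41480; -0.85 in wild type and -1.20), PER55 (AT5G14130; -0.67 and -1.41) and PER59 (AT5G19890; -0.15 and -0.61). PER25 is known from lignin formation in stems. That they passed in one genotype does not show a difference between genotypes. Leaving out the 3 chosen genes, none of the other 38 passed limma's test of that difference. At an unadjusted p under 0.05 there were 7 of 38, beside 6.78% of all tested probe sets (0.00586% called after adjustment). All 7 had the lower value in the samples labelled til1-1, where over all tested probe sets 572 were lower and 584 higher by that rule. That PER25, PER55 and PER59 were called in one genotype alone also depended on the scaling. After scaling to spiked controls all 3 were called lower in wild type too (-1.22 for PER25, -1.04 for PER55 and -0.57 for PER59). For PER59 the til1-1 call was lost with array medians set equal (-0.28) and after quantile normalization (-0.35), and its wild-type value turned to 0.18 and 0.16.

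PER72 (AT5G66390), which acts in lignification, fell by 1.02 in wild type and by 0.75 in the samples labelled til1-1. PER17 (AT2G22420), also tied to lignified tissue, fell by 1.43 and 1.05, and PER66 (AT5G51890), linked to vessel formation, fell by 0.66 and 0.76. PER69 (AT5G64100), tied to root hairs, fell in both genotypes as deposited. PER44 (AT4G26010, 0.27 in wild type and -0.16) and PER62 (AT5G39580, 0.60 and -0.43), also tied to root hairs, did not pass in either genotype. PER44 and PER62 were picked after their values were seen. The other peroxidase genes were not sorted by a tie to root hairs, so no pattern of root hair peroxidases can be read from these. With array medians set equal PER44 (0.62) and PER62 (0.91) were called higher in wild type, PER62 also after quantile normalization (0.90), while after scaling to spiked controls PER44 (-0.63) and PER62 (-0.85) were called lower in the samples labelled til1-1 and PER44 turned to -0.19 in wild type. PER44 thus kept no direction over the scalings in wild type, nor in the samples labelled til1-1 (0.18 with array medians set equal). PER62 stayed positive in wild type (0.18 after scaling to spiked controls) and negative in the samples labelled til1-1 under all 4 scalings. Its wild-type arrays overlapped between temperatures, at 101.1 and 132.3 at 22 °C and 128.5 and 259 at 37 °C. Whether PER62 was called depended on the scaling.

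Further falls were seen in PER38 (AT4G08780; -1.98 in wild type and -1.47), PER11 (AT1G68850; -1.64 and -1.65) and PER45 (AT4G30170; -1.60 and -1.55). PER38 was dim at 37 °C, at 8.0 and 4.4 in wild type and 5.9 and 48.7 in the samples labelled til1-1. Its heat differences are imprecise, with a standard error of 0.47 in each genotype. PER7 (AT1G30870) fell by 1.34 in wild type and by 2.11 in the samples labelled til1-1. PER37 (AT4G08770), which lies in the genome beside PER38, fell by 1.30 and 1.71; as relatives of similar sequence, signal shared by their probes was not tested. PER42 (AT4G21960) had the smallest called fall in both genotypes, by 0.49 and 0.38, and passed in neither with array medians set equal (-0.13 and -0.04), where PER38 did not pass in the samples labelled til1-1 (-1.23). PER57 (AT5G17820) fell by 0.94 in wild type and by 1.54 in the samples labelled til1-1, and PER67 (AT5G58390) by 1.21 and 1.45.

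The other 16 peroxidase genes called lower in both genotypes had values from -1.52 to -0.67 in wild type and from -1.57 to -0.44 in the samples labelled til1-1. The wild-type value is given first for each. The lowest in wild type were PER35 (AT3G49960; -1.52 and -1.53), PER65 (AT5G47000; -1.38 and -0.93), PER27 (AT3G01190; -1.36 and -1.25) and PER30 (AT3G21770; -1.15 and -1.16). Near -1 in wild type lay PER8 (AT1G34510; -1.14 and -0.80), PER20 (AT2G35380; -1.05 and -1.32), PER39 (AT4G11290; -1.02 and -1.57) and PER10 (AT1G49570; -1.02 and -1.16). Smaller wild-type falls were those of PER63 (AT5G40150; -0.92 and -0.53), PER49 (AT4G36430; -0.87 and -1.34), PER9 (AT1G44970; -0.86 and -1.498) and PER12 (AT1G71695; -0.86 and -0.66). The last 4 were PER47 (AT4G33420; -0.80 and -0.97), PER56 (AT5G15180; -0.78 and -0.85), PER31 (AT3G28200; -0.76 and -0.44) and PER21 (AT2G37130; -0.67 and -0.84). With array medians set equal, PER10 (-0.74) and PER56 (-0.46) were no longer called in wild type, nor were PER8 (-0.48), PER31 (-0.10) and PER63 (-0.21) in the samples labelled til1-1. Of the 41 tested genes, 20 lay below -1 in wild type and 23 in the samples labelled til1-1, the 3 chosen genes among them. Of all 17059 tested probe sets, fewer than 1615 lay below -1 in wild type and fewer than 1625 in the samples labelled til1-1.

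**Figure D2:**
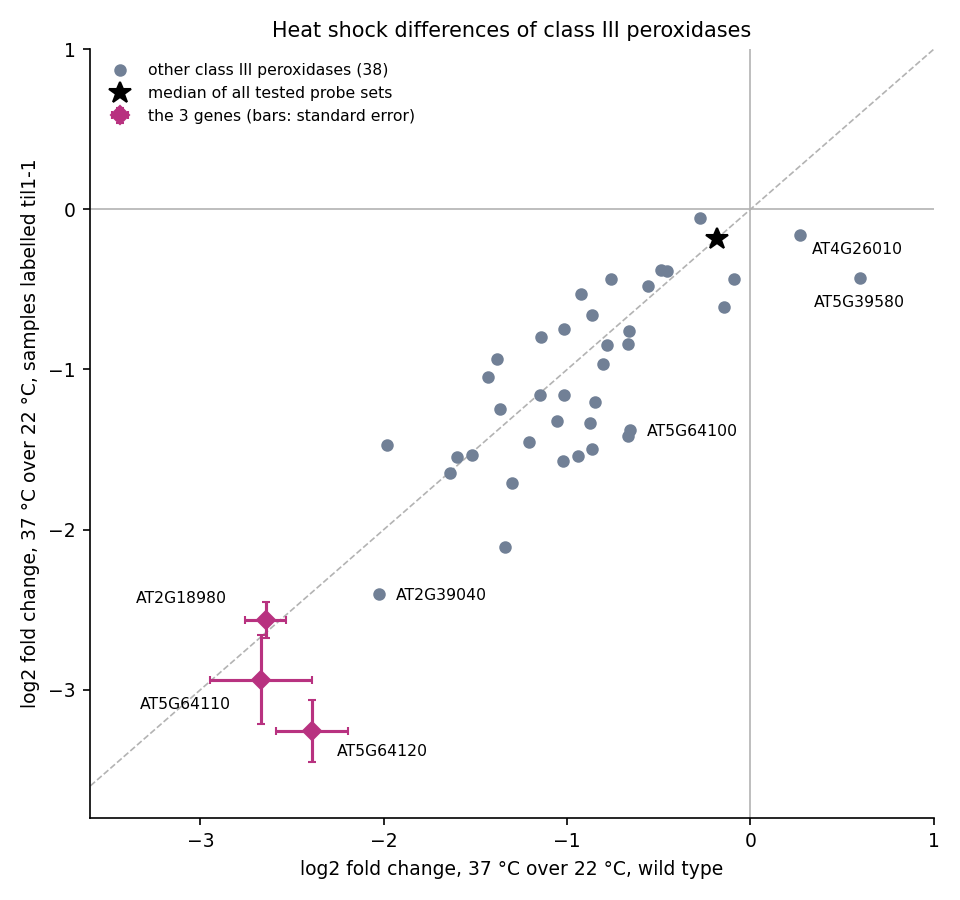
Log2 fold change of intensity at 37 °C over 22 °C for the 41 tested class III peroxidase genes, in wild type (x axis) and in the samples labelled til1-1 (y axis). Diamonds with standard error bars are AT5G64110, AT5G64120 and AT2G18980, circles the other 38 genes, the star the median of all tested probe sets and the dashed line equal values. On this log2 scale the 3 diamonds lie at the lower left, past AT2G39040 at -2.03 and -2.40.

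The neighbours on chromosome 5 fell by unlike amounts with heat shock. AT5G64100, AT5G64110 and AT5G64120 follow each other with no annotated gene between them in the TAIR10.1 gene table. AT5G64100 read 3205.6 and 3038.6 in wild type at 22 °C and 1713.2 and 2280.1 at 37 °C, and in the samples labelled til1-1 3556.9 and 3014.0 at 22 °C and 1258.3 and 1242.3 at 37 °C. Its heat-shocked arrays lay below its control arrays in both genotypes, by -0.65 ± 0.12 in wild type and -1.38 ± 0.12 in the samples labelled til1-1 on the log2 scale (limma adjusted p 0.000959 and 2.68e-06; in wild type -0.30 and 0.0607 with array medians set equal), against -2.67 and -2.39 in wild type for the other two. The deposited table gives no probe sequences, so signal shared among the 3 neighbours was not tested.

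The genotypes were also compared at the same temperature. This difference was not itself the rule of choice, but it is not independent of the choice of the genes. A low heat-shocked value in either genotype enters both the choice and the genotype difference after heat shock. The p-values of the 3 genes in this comparison are therefore given as a description. At 22 °C none of the 3 genes passed in the samples labelled til1-1 against wild type. AT5G64110 differed by 0.02 (95% confidence interval -0.59 to 0.62), AT5G64120 by -0.27 (-0.69 to 0.15) and AT2G18980 by -0.002 (-0.24 to 0.24), each with a limma adjusted p of 1.00. In AT5G64120 both arrays labelled til1-1 were below both wild-type arrays, a pattern found in 19.9% of tested probe sets. Of all tested probe sets 0.00586% were called at 22 °C.

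At 37 °C AT5G64120 stood at 379 ± 122 in wild type (SD, n = 2). The samples labelled til1-1 stood at 163 ± 44.7 (SD, n = 2), or 42.9% of the wild-type mean. The log2 difference was -1.13 ± 0.19 (95% confidence interval -1.56 to -0.71). Both arrays labelled til1-1 lay below both wild-type arrays, as in 18.5% of tested probe sets. The unadjusted p was 8.35e-05 in limma, and the adjusted p of 0.103 missed the threshold. It depended on single arrays: without wild type replicate 1 at 37 °C the difference was -1.45 and the adjusted p 0.0288, and without wild type replicate 2 it was -0.81 with an adjusted p of 0.214. Scaled to 9 spiked bio and cre control probe sets it was -1.01 with an adjusted p of 0.0140. This set was picked after the values were seen, and the other set of 9 gave -0.91 with 0.000596 and both together -0.96 with 0.00140. Over all alternatives run the adjusted p ranged from 0.000596 to 0.241. Only 0.0117% of tested probe sets were called at 37 °C as deposited. The p-values of AT5G64120 given here are not independent of its choice, which drew on the same 37 °C arrays.

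For the other two genes no difference between genotypes was detected at 37 °C. AT5G64110 differed by -0.25 (95% confidence interval -0.85 to 0.36, limma adjusted p 0.740), a value that rested on the array labelled til1-1 replicate 2 at 34.7 units: without it the difference was 0.32, and without replicate 1 it was -0.81. AT2G18980 differed by 0.08 (-0.16 to 0.32, adjusted p 0.801), the narrowest interval of the 3. The intervals of AT5G64120 and AT2G18980 at 37 °C do not overlap, but the difference between genes was not tested.

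The difference of the heat responses, til1-1 minus wild type, was -0.86 ± 0.28 for AT5G64120 (95% confidence interval -1.46 to -0.26). It was -0.27 ± 0.39 for AT5G64110 (-1.12 to 0.59) and 0.08 ± 0.16 for AT2G18980 (-0.26 to 0.42). Single arrays moved it: for AT5G64120 it was -1.18 without wild type replicate 1 at 37 °C and -0.55 without wild type replicate 2. For AT5G64110 it was -0.83 without til1-1 replicate 1 at 37 °C and 0.30 without til1-1 replicate 2. These estimates contain the heat values that chose the genes and are given without a test.

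**Figure D3:**
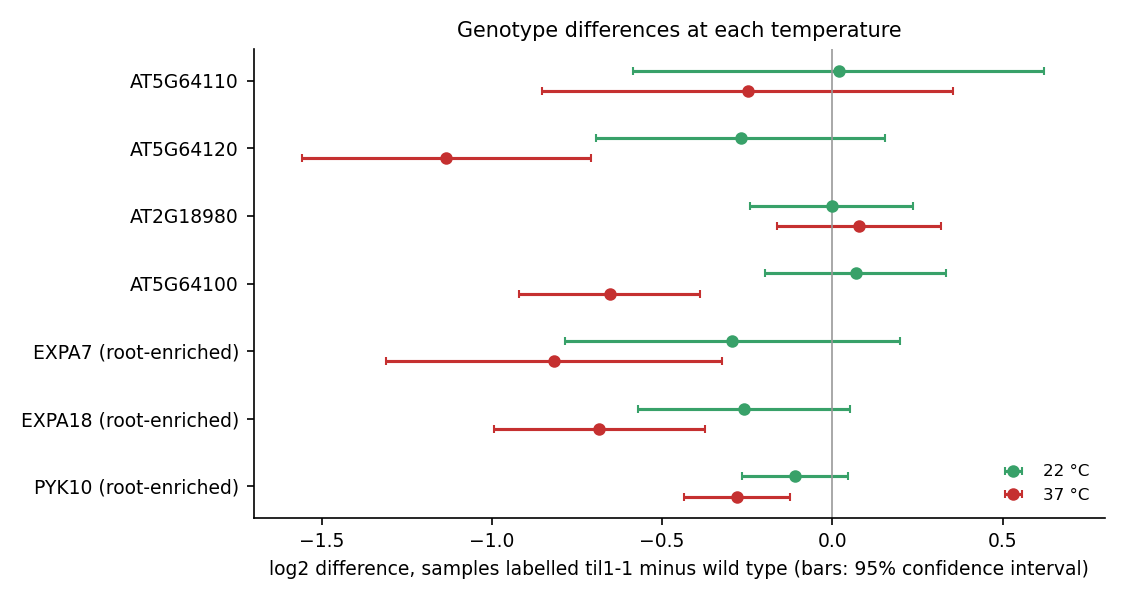
Log2 difference between samples labelled til1-1 and wild type at 22 °C (green) and 37 °C (red), with 95% confidence intervals, for AT5G64110, AT5G64120, AT2G18980, AT5G64100 and 3 root-enriched genes. At 37 °C AT5G64120 lies at -1.13 and AT2G18980 at 0.08, and the root-enriched genes lie between -0.82 and -0.28.

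Across the family no gene passed between the genotypes at either temperature in limma. At 22 °C 2 of 41 had an unadjusted p under 0.05, both higher in the samples labelled til1-1, beside 3.85% of all tested probe sets. At 37 °C there were 12 of 41, 9 lower and 3 higher, where 6.65% of all tested probe sets were lower and 6.71% higher by the same rule. Without the 3 chosen genes there were 11 of 38, 8 lower and 3 higher. Besides AT5G64120 the lower ones included PER57 (AT5G17820; -0.73), PER7 (-0.69) and AT5G64100 (-0.65), each with a limma adjusted p of 0.103. In 14 of 41 genes both arrays labelled til1-1 lay below both wild-type arrays at 37 °C, against 4 of 41 at 22 °C, where the shares over all tested probe sets were 18.5% and 19.9%.

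Markers of root and green tissue moved in the same comparisons. Of 5 root markers 3 were measured, and their summed intensity was 17143 to 18836 in wild type at 22 °C, 16423 to 16719 in the samples labelled til1-1 at 22 °C, 10643 to 11601 in wild type at 37 °C and 8980 to 9153 in the samples labelled til1-1 at 37 °C. PYK10 supplied most of each sum, at 16406 and 18183 in wild type at 22 °C. It read 8843 and 8973 in the samples labelled til1-1 at 37 °C. All 3 root markers fell with heat shock. The log2 differences were -1.20 in wild type and -1.73 in the samples labelled til1-1 for EXPA7. They were -1.19 and -1.61 for EXPA18 and -0.67 and -0.84 for PYK10. EXPA7 and EXPA18 encode expansins of root hairs, and PYK10 is a beta-glucosidase of root endoplasmic reticulum bodies. At 37 °C they differed between the genotypes by -0.82, -0.68 and -0.28, with limma adjusted p-values of 0.175, 0.103 and 0.150. The 4 green tissue markers summed to 61281 to 66842 in wild type at 22 °C and 58384 to 62487 in the samples labelled til1-1, and to 80442 to 83807 and 92439 to 95645 at 37 °C; 3 of 4 were called higher with heat shock in wild type and 4 of 4 in the samples labelled til1-1, a direction that turned after quantile normalization (RCA -0.24 in wild type) and, in wild type, with spiked controls setting the scale (RCA -0.09). RCA is rubisco activase. At 37 °C the green tissue markers differed between the genotypes by 0.14 to 0.25, with limma adjusted p-values of 0.188 to 0.538. After quantile normalization these differences were 0.001 to 0.11. None of these 7 genes was at 0 on any array, and their part in the peroxidase values was not tested.

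Other genes that make or consume hydrogen peroxide, or use it in the wall, were scarcely covered by 1-gene probe sets. Of 17 genes of monolignol synthesis HCT alone was measured, which makes shikimate esters for lignin precursors; it fell by 0.97 in both genotypes. Of 8 Casparian strip genes, the receptor kinase gene SGN3 was measured and fell by 0.99 in wild type and by 1.06 in the samples labelled til1-1. Among 10 NADPH oxidases, which make the superoxide that yields hydrogen peroxide, RBOHE (0.48 and 0.62) and RBOHG (-0.93 and -0.98) did not pass and RBOHI was too dim to be tested. Of 7 ascorbate peroxidases, intracellular enzymes of class I, SAPX (-0.21 in wild type) and TAPX (0.14) did not pass in wild type, while in the samples labelled til1-1 SAPX fell by 0.46 and TAPX rose by 0.35. These calls depended on the scaling. With array medians set equal the fall of SAPX did not pass (-0.13), TAPX was called higher in wild type too (0.49), and RBOHE was called higher in both genotypes (0.78 and 0.92), as it was after quantile normalization (0.75 and 0.89). With spiked controls setting the scale RBOHG was called lower in both genotypes (-1.28 and -1.34), SAPX was called lower in wild type too (-0.66), and TAPX was called lower in wild type (-0.32) and turned to -0.11 in the samples labelled til1-1. The 1 measured laccase gene of 17, LAC16, was too dim. No gene of the lists for superoxide dismutases and catalases (10) or for extensins (4) was measured. The annotation left 8730 probe sets unlisted, so a gene not measured here is not shown to be missing from the array.

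Genes whose pattern over the 8 arrays was most like each of the 3 were found by Pearson correlation of log2 values among nuclear genes. Since all 8 arrays share the step between 22 °C and 37 °C, 1748 of 9286 probe sets exceeded 0.9 for AT5G64110, 1400 for AT5G64120 and 1908 for AT2G18980. The 5 closest to AT5G64110 (r 0.995 to 0.997) were SBT1.3 (AT5G51750), a subtilase, AT2G45590, AT3G16200, AT1G13460 and PER67 (AT5G58390), itself a class III peroxidase. SBT1.3 averaged 1435 in wild type at 22 °C and 492 at 37 °C. For AT5G64120 (r 0.995 to 0.998) they were AT1G74510, AT3G15680, AT1G05910, AT3G43960 and LCR68 (AT2G02130), a small cysteine-rich protein gene. For AT2G18980 (r 0.997 to 0.999) they were AT4G23740, AT5G13140, AT1G53035, the glucosinolate transporter gene GTR2 (AT5G62680) and AT1G52060. Among themselves the 3 peroxidase genes correlated at 0.976 (AT5G64110 with AT2G18980), 0.941 (AT5G64120 with AT2G18980) and 0.929 (AT5G64110 with AT5G64120), over 8 arrays.

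Under the 4 scalings of the arrays the heat differences of the 3 genes changed in size and stayed negative. The median of all tested probe sets in wild type was -0.18 in the deposited values, 0.14 once medians were made equal, -0.05 with quantile normalization and -0.61 when spiked controls set the scale. Over these 4 scalings AT2G18980 ranged from -3.08 to -2.31 in wild type. The family's counts of genes called lower in wild type were 32, 28, 31 and 37 of 41, and 28 genes were called lower under all 4. The shares of all tested probe sets called lower were 31.3%, 14.5%, 22.9% and 65.2%. In the samples labelled til1-1 the counts were 35, 29, 31 and 39, with 29 called lower under all 4. There the shares were 31.6%, 14.9%, 23.7% and 66.7%. Over all tested probe sets the calls that were higher made up 28.4%, 67.7%, 40.7% and 6.7% in wild type.

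**Figure D4:**
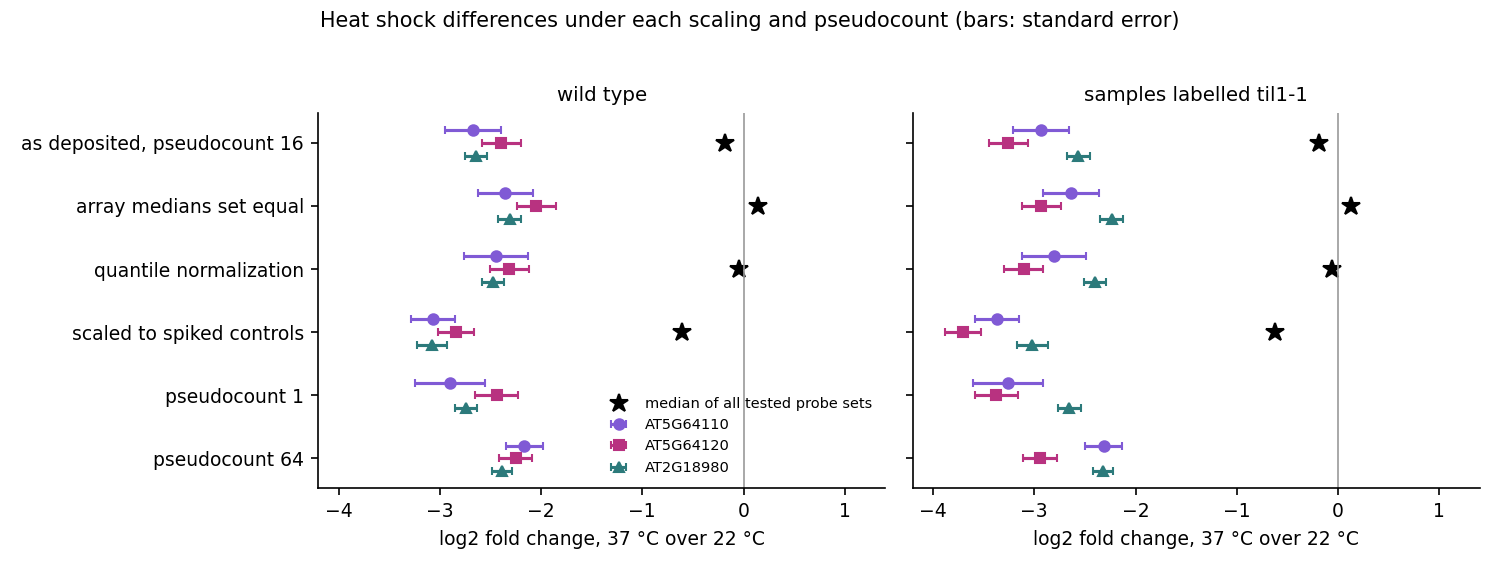
Log2 fold change at 37 °C over 22 °C (x axis) of AT5G64110, AT5G64120 and AT2G18980 with standard error bars, under each array scaling and pseudocount (rows), in wild type (left) and in the samples labelled til1-1 (right). Stars mark the median of all tested probe sets for the 4 scalings, which goes from 0.14 to -0.61 in wild type. All 3 genes stay below -2 in every row, also where the star lies above 0.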

How the data were processed

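The deposited table holds 1 linear intensity per probe set and array, 22810 on each of 8 arrays. Per the submitters' processing notes, the authors computed these intensities in GCOS, Affymetrix's own program; version, summary algorithm and background step are not stated there. The 2% trimmed mean of each array was 500.04 or 500.05, which shows a scaling to one value. Arrays have no read depth, and their number limits the precision.

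Genes were named from the platform annotation through gene IDs of a TAIR10.1 table: 13513 probe sets had 1 gene (13436 matched), 503 had several and 8730 were unlisted. Controls (64) and the dimmest 25% of the rest, by mean log2 value over all 8 arrays, were left out. The remaining 17059 were tested on log2(intensity + 16) with limma 3.58.1 (R 4.3.3), fitting a mean for each group, with 4 residual degrees of freedom, an intensity trend and Benjamini-Hochberg adjustment at 0.05; each adjusted p is from this fit, two-sided. SDs measure the spread between the 2 pools of a group. Standard errors, confidence intervals and p-values rest on a spread pooled over the 4 groups and moderated by limma along the intensity trend.

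The 3 genes, the 10 gene lists and the tests were chosen with earlier results of these data known. Named genes are the 3, AT5G64100, every other peroxidase called with heat shock, at most 4 of each list, and the 5 most correlated genes per member; PER44 and PER62, not called, were added after their values were seen. Rounding the 25% up, and using for the spiked controls the 9 of the 18 bio and cre probe sets whose names carry r2, were settled after the values were seen, by matching an earlier result of these data; the other 9 and all 18 were then run as alternatives. PER numbers follow the usual family numbering and were written from general knowledge. Of 155 list members 70 were measured. Same-numbered replicates deviated together with correlations of -0.04 to 0.14, so the numbers were not taken as pairs. No sequences were used, and the planned promoter search was not run.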

Additional observations from a re-analysis of the deposited data

How the results depend on the processing

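All 3 genes kept negative heat differences under every alternative run, and none passed between genotypes except AT5G64120 at 37 °C under the settings named here. The heat difference of AT2G18980 in wild type was -2.31 with equal array medians, -2.47 with quantile normalization, -3.08 on the scale of spiked controls, -2.74 with a pseudocount of 1 and -2.39 with 64. In the samples labelled til1-1 it was -2.24, -2.40 and -3.02 under the 3 scalings and -2.32 with a pseudocount of 64; AT5G64120 was there at -3.71 after scaling to spiked controls. Spiked controls here are 9 bio and cre probe sets; the other 9, and all 18, were added after seeing the data. They gave -3.21 and -3.15 for AT2G18980 and -2.98 and -2.91 for AT5G64120 in wild type, -2.995 and -3.01 for AT2G18980 in the samples labelled til1-1, 0.064 and 0.097 for AT2G18980 between genotypes at 22 °C, and -0.91 and -0.96 for AT5G64120 at 37 °C, which passed; the difference of responses of AT2G18980 was 0.22 with the other 9. At 37 °C the genotype difference of AT5G64120 passed after scaling to spiked controls (-1.01) and with the replicate number as a block (-1.13, limma adjusted p 0.0243); leaving out 1 array gave -1.45 to -0.81, and passed without wild type replicate 1 at 37 °C. AT2G18980 at 22 °C turned to 0.13 after scaling to spiked controls. Leaving out 1 array gave -0.068 to 0.064 for AT2G18980 and -0.12 to 0.16 for AT5G64110 at 22 °C, and -0.81 to 0.32 for AT5G64110 at 37 °C; the cause was not tested.

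Peroxidases called higher with heat shock in wild type numbered 2 with medians set equal, 1 after quantile normalization and 1 with the replicate block, against 0, and 0 to 1 leaving out 1 array; in the samples labelled til1-1 1 was called higher without a filter. Peroxidases called lower between genotypes at 37 °C numbered 1 after scaling to each of the 3 sets of spiked controls, 1 with the replicate block and 0 to 2 leaving out 1 array. Probe sets called with heat shock numbered 11924 in wild type and 12182 in the samples labelled til1-1 after scaling to spiked controls, against 7461 and 7563, with 13320 and 11463 on the other 9 and 12706 and 11913 on all 18. On the other 9 and all 18, 40 and 24 were called between genotypes at 22 °C, 321 and 103 at 37 °C, and 13 and 3 for the difference of the responses. Between genotypes at 22 °C the count was 1; it was 3 after scaling to spiked controls, 0 without a filter, 0 without the trend, 0 with only 4 arrays, 3 with the replicate block and 0 to 2 leaving out 1 array. At 37 °C it was 2, and then 8, 1, 10, 1 and 15 in the same order, 1 with the dimmest 50% left out and 1 to 16 leaving out 1 array. For the difference of the responses it was 1, and 1 to 2 leaving out 1 array. The block cannot be read as a pairing, since the labels share only a number. The fit on 4 arrays was not run for the difference of the responses, which needs all 8.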
